A study of Mus musculus with 2 samples.

Results

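Open chromatin away from gene ends often comes in groups of neighbouring regions, and the groups described here are the densest ones in control mouse hematopoietic stem cells. A cluster was a chain of 4 or more accessible regions of the control library with gaps of 12.5 kb or less. Each region lay more than 1000 bp from both ends of every protein-coding gene, and its summit lay within 50 kb of such a gene. The rule gave 494 clusters holding 2439 regions, 7.66% of the 31831 control regions on chromosomes 1 to 19 and X. They were chosen by the positions of the regions called in control, so their number, spacing and control values are a description. Whether a region was also called in the H1C library played no part in the choice.

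The cells were hematopoietic stem cells with the surface phenotype CD48-CD150+LSK from bone marrow of wild-type C57BL/6J mice, and about 1000 cells entered each library. The control group carried the empty retroviral vector MSCV and the H1C group carried MSCV with H1C, a linker histone gene whose present symbol is H1f2. Open chromatin was mapped by ATAC-seq, which uses a transposase to insert adapters into accessible DNA. There were 2 libraries, 1 per group. The study's title concerns the chromatin protein DEK and replication stress in Fanconi anemia. The number of mice behind each library, their age, the level of H1C reached, and whether transduced cells were sorted are not stated in the sources used here. All cells of both groups had passed through retroviral transduction.

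Distal accessible regions are often enhancers, stretches of DNA where transcription factors displace nucleosomes and act on promoters at a distance. Genes that give a cell its identity often have several enhancers in a row, and neighbouring enhancers joined at a gap of this size are the starting point for calling super-enhancers. Such calling ranks the joined regions by histone marks or Mediator, which were not measured here, so the clusters are named only by their density. Linker histones bind the nucleosome where DNA enters and leaves it and help to pack nucleosomes together.

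The size of a region is given as its summit pileup, the fragments or reads stacked at the highest point, solved from the deposited fold and −log10 p. The fold is that pileup plus 1, divided by the local background plus 1. The background over the whole genome scales with depth and was 3.99 in control and 4.40 in H1C. H1C to control pileup ratios were therefore divided by 1.10. Each group held 1 library, so there was no test between groups, and 95% intervals cover counting error only. In libraries of many cells, a region open in fewer cells and a region less open in each cell cannot be told apart.

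The clusters were compact stretches near genes. They had a median span of 21.8 kb (quartiles 16.1 and 28.5 kb) and together spanned 11.5 Mb, of which 0.864 Mb was called open. The median gap between neighbouring regions was 5371 bp. The largest gap inside a cluster was 12488 bp and the smallest gap that ended a chain was 12532 bp. There were 258 clusters of 4 regions, and the remaining 236 had 5 to 18. As a mark of where the rule cuts, the 681 chains of 3 regions had a median summed fold of 13.0 and the 258 clusters of 4 had one of 17.3. In 218 clusters every region lay inside a gene body, in 130 no region did, and 349 clusters had the same nearest protein-coding gene for all their regions. Akap13, which encodes an anchoring protein of kinase A, and Bach2, which encodes a transcriptional repressor of lymphocytes, were each nearest to 3 clusters.

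Most of the sequence under the clusters lies away from annotated starts, but some regions covered the start of a noncoding gene or a further start inside a protein-coding gene. Of the 2439 clustered regions, 133 (5.45%) overlapped the 250 bases before a start annotated by RefSeq, against 6.81% of the distal regions outside clusters. Of the 133, 95 covered a start inside a protein-coding gene and 38 the start of a noncoding gene. The former count as distal because the gene's annotated ends, from its longest transcripts, lie further out, so they can be promoters in use. The 133 regions are set apart from the rest in a comparison below. Other values for clustered regions include them. The windows below are those 250 bases, in build GRCm38 (mm10), on the strand of the gene and read 5′ to 3′, with the control summit inside each window. They are shown to set the letters beside the pileups. In the first lines capitals mark CG dinucleotides, the sites of DNA methylation in mammals. Sp2, Hnrnpl and Baiap2 had the highest control pileups among clustered regions with such a window that were also called in H1C. Sp2 encodes a zinc finger factor, Hnrnpl an RNA-binding protein of splicing and Baiap2 an actin regulator.
Sp2 (chr11:96977689-96977938, minus strand): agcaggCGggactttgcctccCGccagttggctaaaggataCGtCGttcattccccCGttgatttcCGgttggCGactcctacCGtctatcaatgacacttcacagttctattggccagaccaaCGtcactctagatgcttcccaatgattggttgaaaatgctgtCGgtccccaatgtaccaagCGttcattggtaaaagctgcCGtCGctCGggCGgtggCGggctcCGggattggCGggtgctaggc
Hnrnpl (chr7:28810640-28810889, plus strand): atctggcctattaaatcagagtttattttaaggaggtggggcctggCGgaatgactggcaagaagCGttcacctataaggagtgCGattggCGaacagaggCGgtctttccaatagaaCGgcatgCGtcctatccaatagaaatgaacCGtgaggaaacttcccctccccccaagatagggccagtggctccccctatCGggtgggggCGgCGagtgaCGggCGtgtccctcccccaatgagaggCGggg
Baiap2 (chr11:119942842-119943091, plus strand): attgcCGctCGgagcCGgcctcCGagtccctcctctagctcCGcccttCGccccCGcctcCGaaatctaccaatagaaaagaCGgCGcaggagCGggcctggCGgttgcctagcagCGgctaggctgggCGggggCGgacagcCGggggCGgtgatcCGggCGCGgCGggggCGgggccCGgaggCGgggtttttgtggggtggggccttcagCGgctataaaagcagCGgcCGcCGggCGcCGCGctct

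These windows held 18, 14 and 31 CG. The control and H1C pileups were 109 and 64 at Sp2, 101 and 56 at Hnrnpl, and 88 and 42 at Baiap2. All 3 were lower in H1C. The depth-scaled log2 ratio was -0.91 at Sp2 (95% interval -1.38 to -0.45), -0.99 at Hnrnpl (-1.49 to -0.51) and -1.21 at Baiap2 (-1.78 to -0.66).

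The next 3 windows belong to the strongest clustered regions with a window that were called in control only. Gpr146 encodes a G protein-coupled receptor and Sema4b a semaphorin, a membrane signalling protein. 2310001H17Rik is a noncoding RNA in the cluster of Cd69, an early activation antigen.
Gpr146 (chr5:139380389-139380638, plus strand): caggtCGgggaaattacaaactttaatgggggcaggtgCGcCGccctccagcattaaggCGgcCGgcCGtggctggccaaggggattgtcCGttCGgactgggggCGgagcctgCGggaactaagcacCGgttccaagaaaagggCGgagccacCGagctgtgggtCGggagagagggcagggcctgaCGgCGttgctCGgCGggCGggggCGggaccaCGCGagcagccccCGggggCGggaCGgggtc
Sema4b (chr7:80198338-80198587, plus strand): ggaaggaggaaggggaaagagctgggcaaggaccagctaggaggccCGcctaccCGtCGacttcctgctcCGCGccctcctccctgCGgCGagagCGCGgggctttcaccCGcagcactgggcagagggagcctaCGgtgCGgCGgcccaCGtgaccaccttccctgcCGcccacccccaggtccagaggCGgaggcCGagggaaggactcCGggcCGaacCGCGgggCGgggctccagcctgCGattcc
2310001H17Rik (chr6:129238046-129238295, minus strand): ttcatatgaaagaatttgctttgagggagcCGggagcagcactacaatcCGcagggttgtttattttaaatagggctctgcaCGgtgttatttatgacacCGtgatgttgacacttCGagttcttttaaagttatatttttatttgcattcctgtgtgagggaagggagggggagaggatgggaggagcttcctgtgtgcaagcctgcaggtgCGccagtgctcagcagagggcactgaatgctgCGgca

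These windows held 25, 23 and 7 CG. The control pileups were 60 at Gpr146, 54 at Sema4b and 52 at 2310001H17Rik. A window rich in CG was thus seen on both sides of the H1C call.

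Windows of genes in the lists described further on are given next, for Mcl1, which keeps cells from apoptosis, for Nr4a1, an immediate early nuclear receptor, and for the noncoding gene 0610039H22Rik in the cluster of Msi2, an RNA-binding regulator of stem cells.
Mcl1 (chr3:95658471-95658720, plus strand): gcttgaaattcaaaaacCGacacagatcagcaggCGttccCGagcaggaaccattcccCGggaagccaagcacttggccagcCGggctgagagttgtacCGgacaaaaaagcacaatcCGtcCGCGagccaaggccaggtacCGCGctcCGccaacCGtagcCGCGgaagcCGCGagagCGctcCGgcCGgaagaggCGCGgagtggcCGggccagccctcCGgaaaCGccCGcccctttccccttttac
Nr4a1 (chr15:101266596-101266845, plus strand): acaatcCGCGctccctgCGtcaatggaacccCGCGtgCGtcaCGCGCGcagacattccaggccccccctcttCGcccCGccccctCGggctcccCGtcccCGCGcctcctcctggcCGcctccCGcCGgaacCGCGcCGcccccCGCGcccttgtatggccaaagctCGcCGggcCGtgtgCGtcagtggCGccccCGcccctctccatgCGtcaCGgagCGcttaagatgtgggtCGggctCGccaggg
0610039H22Rik (chr11:88619001-88619250, plus strand): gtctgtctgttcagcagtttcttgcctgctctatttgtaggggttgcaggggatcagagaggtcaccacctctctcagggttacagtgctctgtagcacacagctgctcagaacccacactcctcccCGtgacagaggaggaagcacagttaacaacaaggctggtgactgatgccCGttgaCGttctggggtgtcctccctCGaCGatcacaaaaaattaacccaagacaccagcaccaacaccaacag

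The Mcl1 window held 26 CG and its region had pileups of 73 in control and 41 in H1C. The Nr4a1 window held 34 CG, with pileups of 40 and 35. The window in the Msi2 cluster held 5 CG, and its region had a control pileup of 25 and no call in H1C.

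In the last 4 windows capitals mark TGANTCA, a loose form of the site of AP-1, a factor induced by growth signals and stress. The middle letter was T at Bfsp2 and C or G at the others. Bfsp2, a lens filament gene, and Elf1, an ETS factor gene, were also called in H1C. Osgin1, an oxidative stress gene, and Csrnp1, which encodes a nuclear protein, were called in control only.
Bfsp2 (chr9:103449177-103449426, minus strand): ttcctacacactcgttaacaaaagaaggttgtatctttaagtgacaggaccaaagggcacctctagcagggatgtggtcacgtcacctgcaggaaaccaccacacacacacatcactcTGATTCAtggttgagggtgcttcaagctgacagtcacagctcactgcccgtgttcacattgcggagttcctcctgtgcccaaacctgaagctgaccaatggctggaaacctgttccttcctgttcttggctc
Elf1 (chr14:79515424-79515673, plus strand): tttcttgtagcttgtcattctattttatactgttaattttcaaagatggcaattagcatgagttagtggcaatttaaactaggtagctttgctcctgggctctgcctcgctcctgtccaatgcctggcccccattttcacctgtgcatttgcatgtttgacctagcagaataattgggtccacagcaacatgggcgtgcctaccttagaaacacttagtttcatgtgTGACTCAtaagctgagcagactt
Osgin1 (chr8:119436897-119437146, plus strand): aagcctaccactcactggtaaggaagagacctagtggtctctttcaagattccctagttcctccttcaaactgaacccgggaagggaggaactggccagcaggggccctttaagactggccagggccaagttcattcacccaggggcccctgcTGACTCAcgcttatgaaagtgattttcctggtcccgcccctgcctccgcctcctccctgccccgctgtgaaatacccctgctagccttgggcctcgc
Csrnp1 (chr9:119983024-119983273, minus strand): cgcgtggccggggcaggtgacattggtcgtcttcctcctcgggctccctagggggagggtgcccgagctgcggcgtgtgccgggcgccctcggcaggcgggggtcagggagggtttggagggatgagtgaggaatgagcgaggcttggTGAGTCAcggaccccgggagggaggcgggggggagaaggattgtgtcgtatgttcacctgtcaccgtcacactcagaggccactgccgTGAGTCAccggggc

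The pileups were 50 in control and 33 in H1C at Bfsp2, and 46 and 21 at Elf1. They were 42 at Osgin1 and 41 at Csrnp1 in control. The motif thus stood in windows with and without an H1C call.

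The 97 windows that held the summit of a clustered region came from 91 regions, so some regions count more than once. Over these windows, CG content and pileup moved together with the H1C call. The 51 windows of regions also called in H1C had a median of 15 CG and a median pileup of 58. The 46 windows of control-only regions had medians of 7 CG and 34, and all 32851 windows of the annotation had a median of 6 CG. The loose AP-1 letters TGANTCA, with any middle base, were searched on both strands. They were in 9.80% of the windows also called in H1C, 19.6% of the control-only windows and 6.75% of all windows. The ETS letters GGAAGT were in 21.6%, 30.4% and 19.7% of the same groups, and the RUNX letters TGTGGT in 7.84%, 15.2% and 14.05%. The GATA letters AGATAA were in 1.96%, 0% and 9.99%, and the E-box CAGCTG in 7.84%, 8.70% and 13.0%. Among the 51 and the 46 windows, matches to a motif were in 0 to 14 windows, so these percentages rest on small counts. Matches of different motifs may overlap, and a match is a string of letters, not a bound site. The part of CG content or of a motif in the H1C call was not tested.

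Clustered regions over an annotated start were called in H1C more often than the rest. Of the 133, 68 were also called in H1C (51.1%, 95% interval 42.3 to 59.9), against 580 of the 2306 others (25.2%, 23.4 to 27.0). Their median control pileup was 42, against 30. Among regions with a pileup of at least 40 the shares were 78.9% of 71 (67.6 to 87.7) and 58.7% of 603 (54.7 to 62.7), with median pileups of 57 and 49. Between pileups of 31 and 60, where the medians were 42 and 39, the shares were 50.7% of 69 (38.4 to 63.0) and 35.1% of 1008 (32.2 to 38.2).

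About 1 in 4 clustered regions was also called in H1C. The number was 648 of 2439 (26.6%, 95% interval 24.8 to 28.4), where a call meant an overlap of at least 1 bp. The background was 34.1% of all control regions, 19.9% of the 15937 other distal regions within 50 kb of a gene, and 62.9% of the gene-end regions, those within 1000 bp of an end of a protein-coding gene. Clusters thus lay 6.62 percentage points above the distal regions outside them and far below gene ends. Without the cluster at Sfi1, described below, the share was 26.1%. High-copy regions were those with a local background of 5 or more times the genome-wide one, and 20 clustered regions were of this kind. The name rests on that bound alone, as copy number was not measured. With high-copy regions left out before chaining, which gave 490 clusters, the share was 25.98%.

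The clustered regions had higher summits than the other distal regions and stood in a higher local background. They were chosen for density in control, and the median background rose with the number of regions in a chain. It was 4.2 in regions with no neighbour and 7.16 in clusters of 7 or more. Median pileup was 31 in clusters, 23 in other distal regions and 44 at gene ends. Median local background was 6.44, 4.56 and 6.16, so the median fold was 4.08 in clusters and 4.06 in other distal regions. Median width was 306 and 292 bp. The clustered regions also called in H1C had a median control pileup of 45 and the control-only ones 28.

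At like control pileups above 40, the share called in H1C was lower in clustered regions than in other distal regions, and at lower pileups the shares were close. Between pileups of 41 and 50 the share was 45.2% of 314 clustered regions (95% interval 39.6 to 50.9) and 55.7% of 980 others (52.5 to 58.9). Between 51 and 60 it was 69.5% of 154 (61.6 to 76.6) and 79.4% of 456 (75.4 to 83.0). Between 61 and 80 it was 87.5% of 112 (79.9 to 92.99) and 96.2% of 370 (93.7 to 97.9). Of these bins, the intervals overlap in that of 51 to 60. Lower down, where most clustered regions lie, they overlap in every bin. The shares were 23.0% and 26.5% at pileups of 31 to 40, 13.1% and 13.9% at 26 to 30, 9.58% and 10.3% at 21 to 25, and 6.82% and 8.68% at 20 or less.

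**Figure D1:**
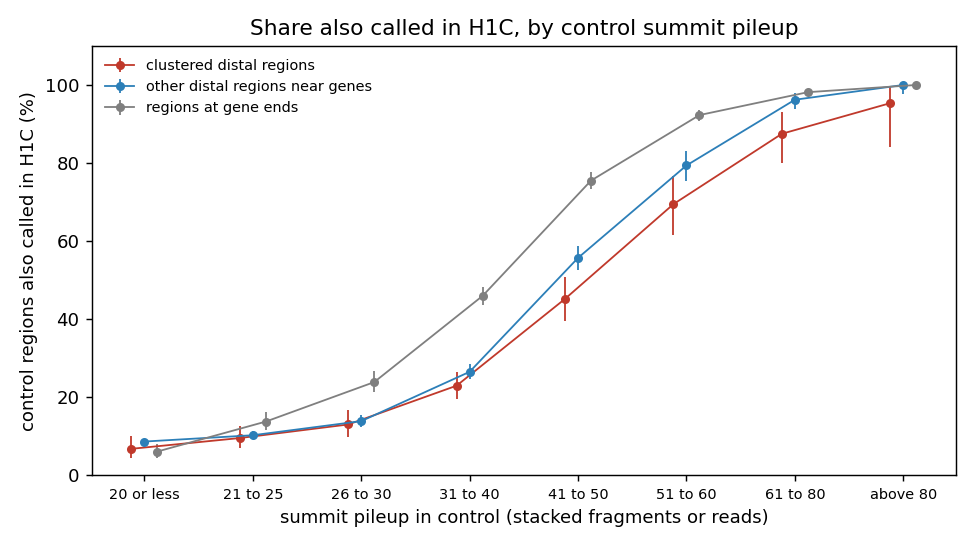
Share of control regions also called in H1C (percent, vertical) by control summit pileup in bins (horizontal), for clustered regions, other distal regions near genes and gene-end regions. Points are shares and bars are exact 95% intervals over regions; clustered regions lie below the other distal regions in each bin, for instance 45.2% against 55.7% at pileups of 41 to 50.

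The order of clusters and other distal regions therefore turned with the measure held equal. Weighted over bins of pileup, the clusters lay 3.89 percentage points below the other distal regions (a difference of -3.89), and over bins of pileup and width the difference was -1.31 points. Within 10 bins of control fold, which takes the local background into account, the difference was 7.62 points in favour of the clusters, and within 10 bins of −log10 p it was 2.15 points. At pileups of at least 40 the median local background was 8.67 in clusters and 6.96 in the other distal regions, the median fold was 5.40 and 6.77, and the median width was 401.5 and 477 bp. The shares at that height were 60.8% of 674 (57.0 to 64.5) and 70.6% of 2102 (68.6 to 72.6), beside 83.1% of all control regions. At pileups of at least 60 they were 89.1% of 165 (83.3 to 93.4) and 97.3% of 556 (95.6 to 98.5). The part of the local background in these shares was not tested.

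The same pattern ran along the number of neighbours a distal region had, counting only other distal regions near genes. Gene-end regions close by did not count as neighbours. Among all distal regions the share also called in H1C was 19.1% in regions with no neighbour within 12.5 kb, 22.3% in chains of 3, 26.2% in clusters of 4 and 29.0% in clusters of 7 or more. Among regions with a pileup of at least 40 the order was the opposite. It was 75.4% of 1036 regions with no neighbour (95% interval 72.6 to 78.0), 63.6% of 253 in clusters of 4 (57.4 to 69.6) and 57.9% of 145 in clusters of 7 or more (49.5 to 66.1). The median pileup of these strong regions was 50, 49 and 49, while their median local background was 6.45, 8.40 and 9.28 and their median fold 7.43, 5.58 and 5.06.

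**Figure D2:**
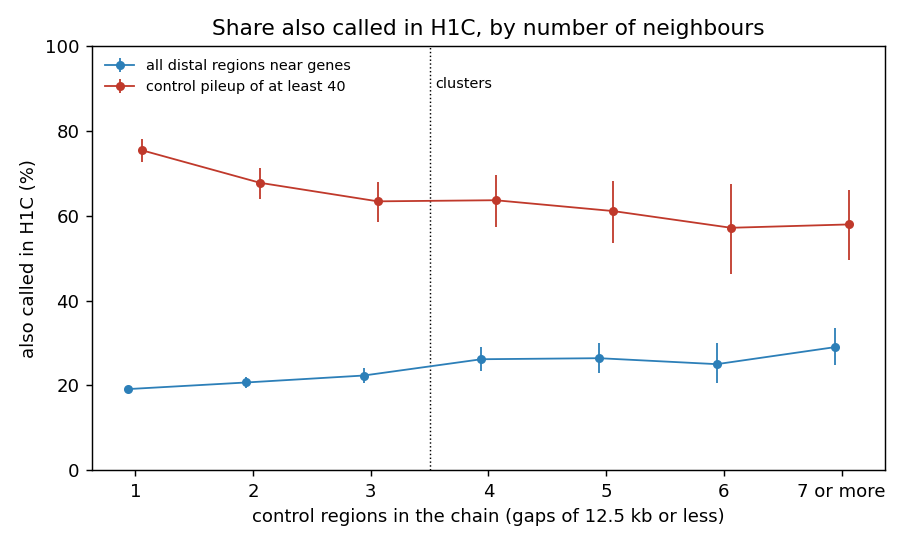
Share of distal control regions also called in H1C (percent, vertical) by the number of regions in their chain (horizontal), for all distal regions near genes and for those with a control pileup of at least 40. Bars are exact 95% intervals over regions and the dotted line marks where clusters begin; the share rises from 19.1% to 29.0% over all regions and falls from 75.4% to 57.9% over strong ones.

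H1C calls were spread over most clusters, and few clusters were called throughout. In 137 of the 494 clusters (27.7%, 95% interval 23.8 to 31.9) no region was called in H1C. In 173 it was 1 region, in 112 it was 2 and in 72 it was 3 or more. All regions were called in H1C in 5 clusters, those of Gm40035, Zfp978, 9230019H11Rik, Tmem267 and Ccnd3. H1C had 734 regions inside the spans of the clusters, of which 41 (5.59%) overlapped no control region, against 15.0% of all 13001 H1C regions. The spans were chosen for dense control regions, which makes an overlap more likely there, so no conclusion is drawn from the lower share.

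**Figure D3:**
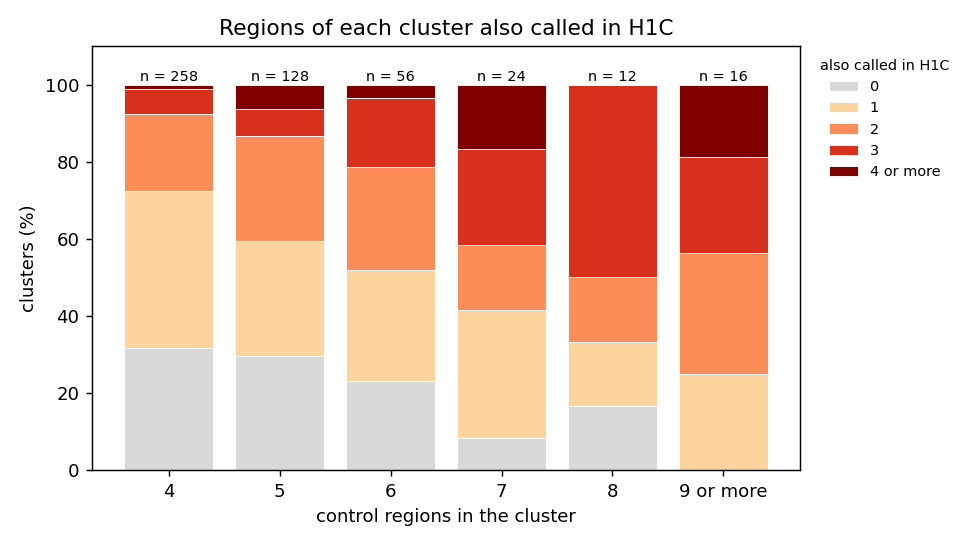
Clusters (percent, vertical, stacked) by the number of control regions in the cluster (horizontal), split by how many of those regions were also called in H1C. Of the 258 clusters with 4 regions 82 had no region called in H1C and 3 had all 4.

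Within a cluster, the region with the highest control pileup was the one most often called in H1C. It was called in 271 of 494 clusters (54.9%, 95% interval 50.4 to 59.3), the region of rank 2 in 31.4% (27.3 to 35.7), that of rank 3 in 19.03% (15.7 to 22.8) and the weakest in 11.3% (8.68 to 14.5). The median control pileups of these ranks were 45, 36, 29 and 21. In other distal regions the share also rose with pileup, from 26.5% at 31 to 40 to 55.7% at 41 to 50. A ranking by pileup brings this order with it, so no conclusion on rank within a cluster is drawn. Of the 357 clusters with any region called in H1C, the strongest was among those called in 271 (75.9%). Among regions with a pileup of at least 40, the strongest of a cluster was called in 72.5% of 331 (67.4 to 77.2) and the others in 49.6% of 343 (44.1 to 55.0), at median pileups of 54 and 47. Regions at the outer edge of a cluster were called in 24.3% (21.6 to 27.1) and inner ones in 28.1% (25.8 to 30.5). Regions inside a gene body were called in 25.5% of 1471 (23.3 to 27.8) and those outside in 28.2% of 968 (25.4 to 31.2).

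Where a clustered region was called in both libraries, its summit was usually lower in H1C. The 648 shared regions had a median depth-scaled log2 ratio of -0.78 (quartiles -1.02 and -0.51), and 92.9% lay below 0, against 93.7% of all shared control regions. The median was -0.94 for the 410 shared regions with a control pileup of at least 40, -0.93 for the same class of other distal regions and -0.89 for gene ends. A ratio exists only where H1C had a call, and regions ranked by their control pileup tend towards low ratios. The 46 regions with a ratio above 0 had a median control pileup of 25.5.

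**Figure D4:**
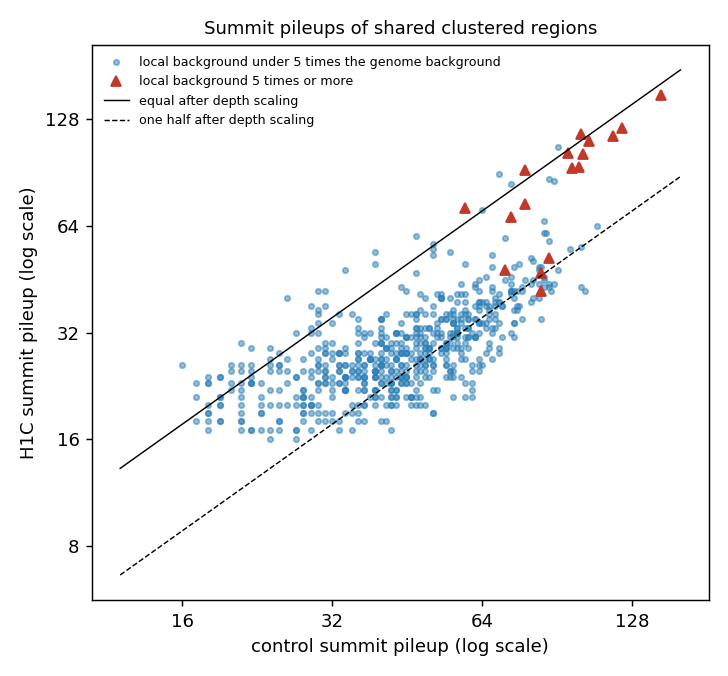
Summit pileup in H1C (vertical, log scale) against control (horizontal, log scale) for the 648 clustered regions called in both libraries. The solid line marks equal pileups after depth scaling and the dashed line a ratio of 1 to 2. Most points lie between the lines or near the dashed one. Of the 17 high-copy regions (triangles), those at Sfi1, Tmem267 and 9230019H11Rik lie near the solid line. The other 4, among them 3 in the Zfp36 cluster, lie near the dashed one.

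The ratios varied between clusters, and some had regions of about equal height in both libraries. Of the 72 clusters with 3 or more shared regions the median of the cluster medians was -0.80, and the 12 highest medians ran from -0.27 to 0.25, with the next at -0.31 (Irak2). These were the clusters of Gm40035, Zfp978, Naaa, Apba2, Gm7827, 9230019H11Rik, Tmem267, Armc12, Btbd35f29 and Mid1 and a pair of clusters at Sfi1. Single regions in them could still be lower in H1C, as at Armc12, whose strongest region had 73 in control and 32 in H1C, and at Naaa, with 43 and 30. A ratio needs an H1C call, and weak shared regions of all clusters had ratios near 0. Their median was 0.006 at control pileups of 20 or less and -0.14 at 21 to 25. The listed clusters mix weak and strong regions, with control pileups of 30, 17 and 24 at Gm7827 and of 39 to 91 at Gm40035. The 17 shared high-copy regions had a median of -0.17, and the other 631 had -0.79. The 17 were split, with ratios of -1.14 to -0.71 at Zfp36, Med29 and Tspoap1. Those at Sfi1, Tmem267 and 9230019H11Rik ran from -0.24 to 0.15. No filter for repeated sequence was applied here, and its part in these ratios was not tested.

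Sfi1, which encodes a centrosome protein, had the cluster with the most regions. It spanned chr11:3123231-3199875 with 18 regions, of which 16 were also called in H1C, and a summed fold of 63.5. The first 10 regions had control pileups of 30 to 66 and H1C pileups of 36 to 55. The last 8, at 78 to 146, stood in a local background of 43.9 to 73.8, and 6 of them were called in H1C with pileups of 92 to 150. The strongest had pileups of 146 in control and 150 in H1C, a log2 ratio of -0.10 (95% interval -0.44 to 0.24). H1C had 21 regions in the span, 3 of them without a control region. This was the cluster with the most H1C regions.

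Tmem267 (chr13:119596415-119602621) had 5 regions within 6.21 kb, all of them high-copy regions as defined above. Their control pileups were 100, 59, 102, 73 and 105 and their H1C pileups 94, 72, 102, 68 and 111. The order of the regions by height was the same in both libraries for the strongest and differed among the weakest. Gm40035 (chr2:181917319-181931042) also had 5 regions called throughout, with control pileups of 91, 69, 39, 55 and 73 and H1C pileups of 107, 90, 54, 54 and 84. Its local backgrounds, 8.28 to 10.7, were below the high-copy bound.

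Midn, Nedd9 and Ccnd3 also had most of their regions called in H1C, but at lower pileups than in control. Midn encodes midnolin, which brings short-lived nuclear proteins to the proteasome. Its cluster (chr10:80142145-80168318) had control pileups of 66, 48, 81, 103 and 87, and H1C calls of 38, 51, 42 and 58 at all but the second. The region at 103 had a log2 ratio of -1.44 (95% interval -1.99 to -0.91). Nedd9 encodes an adhesion scaffold. Its cluster (chr13:41358525-41382200) had control pileups of 70, 22, 35, 51 and 36 and H1C pileups of 38, 17, 17 and 19 at the first 4. Ccnd3 encodes cyclin D3, which drives entry into the cell cycle in blood cells. Its 4 regions (chr17:47507969-47531872) had control pileups of 70, 69, 51 and 30 and H1C pileups of 38, 28, 26 and 19. All 4 were lower in H1C.

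Of the other clusters with many regions, those of Zmiz1 and Rubcnl had few H1C calls. Over all clusters of 7 or more regions the share called was 29.0%, against 26.6% of all clustered regions. Zmiz1 encodes a coactivator of the PIAS family. Its cluster (chr14:25459158-25530710) lay wholly inside the gene, with 13 regions at control pileups of 24 to 59. H1C had a call at 2 of them, with pileups of 33 where control had 59 and 25 where control had 42, so the strongest region was one of those called. Rubcnl encodes an autophagy regulator. Its cluster (chr14:74996516-75069912) had 12 regions with pileups of 21 to 47 and the second highest summed fold, 60.1. The 2 called in H1C had control pileups of 36 and 38 and H1C pileups of 18 and 21, and the strongest region was not called.

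Aff1, a scaffold of the super elongation complex, and Gse1, a partner of the CoREST repressor complex, each had 11 regions inside the gene. At Aff1 (chr5:103699607-103761108) the control pileups ran from 16 to 48 and the region at 48 alone was called in H1C, with 27. At Gse1 (chr8:120276383-120335665) they ran from 18 to 43 and the region at 43 alone was called, with 21. In both genes the call fell on the strongest of 11 regions. Ago2, the slicing Argonaute of RNA interference, had 10 regions (chr15:73137542-73176148) with pileups of 25 to 58. Its strongest alone was called in H1C, with 34.

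Iqsec1, an activator of ARF6, and Sema4d, a semaphorin of immune cells, had 10 regions each with 3 called in H1C. At Iqsec1 (chr6:90713157-90765086) the pairs of control and H1C pileups were 52 and 31, 27 and 32, and 29 and 20. Regions of 37 to 43 in the same cluster had no call. At Sema4d (chr13:51732223-51776696) the pairs were 49 and 26, 47 and 27, and 36 and 35, and the control-only regions had pileups of 27 to 41. Bcl3, a cofactor of NF-kappa-B, had 9 regions (chr7:19815911-19860057), of which the 3 strongest but 0 of the rest were called in H1C. Its pairs were 83 and 49, 65 and 28, and 53 and 32, and its strongest control-only region had 47.

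Inpp5d encodes SHIP1, a phosphatase that restrains signalling in blood cells, and its cluster (chr1:87621493-87659615) had 9 regions inside the gene. The 3 strongest, at 73, 68 and 49, were called in H1C with 44, 39 and 28, and a region of 31 with 25. The 5 control-only regions had pileups of 27 to 34. The log2 ratio of the strongest was -0.87 (95% interval -1.45 to -0.31). Bex6 had 7 regions, 2 of them nearest to Nrros, with a summed fold of 42.4 (chr16:32163473-32203040). The pairs of its 4 shared regions were 61 and 22, 59 and 30, 42 and 23, and 31 and 19. Its region of 46 was called in control only.

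**Figure D5:**
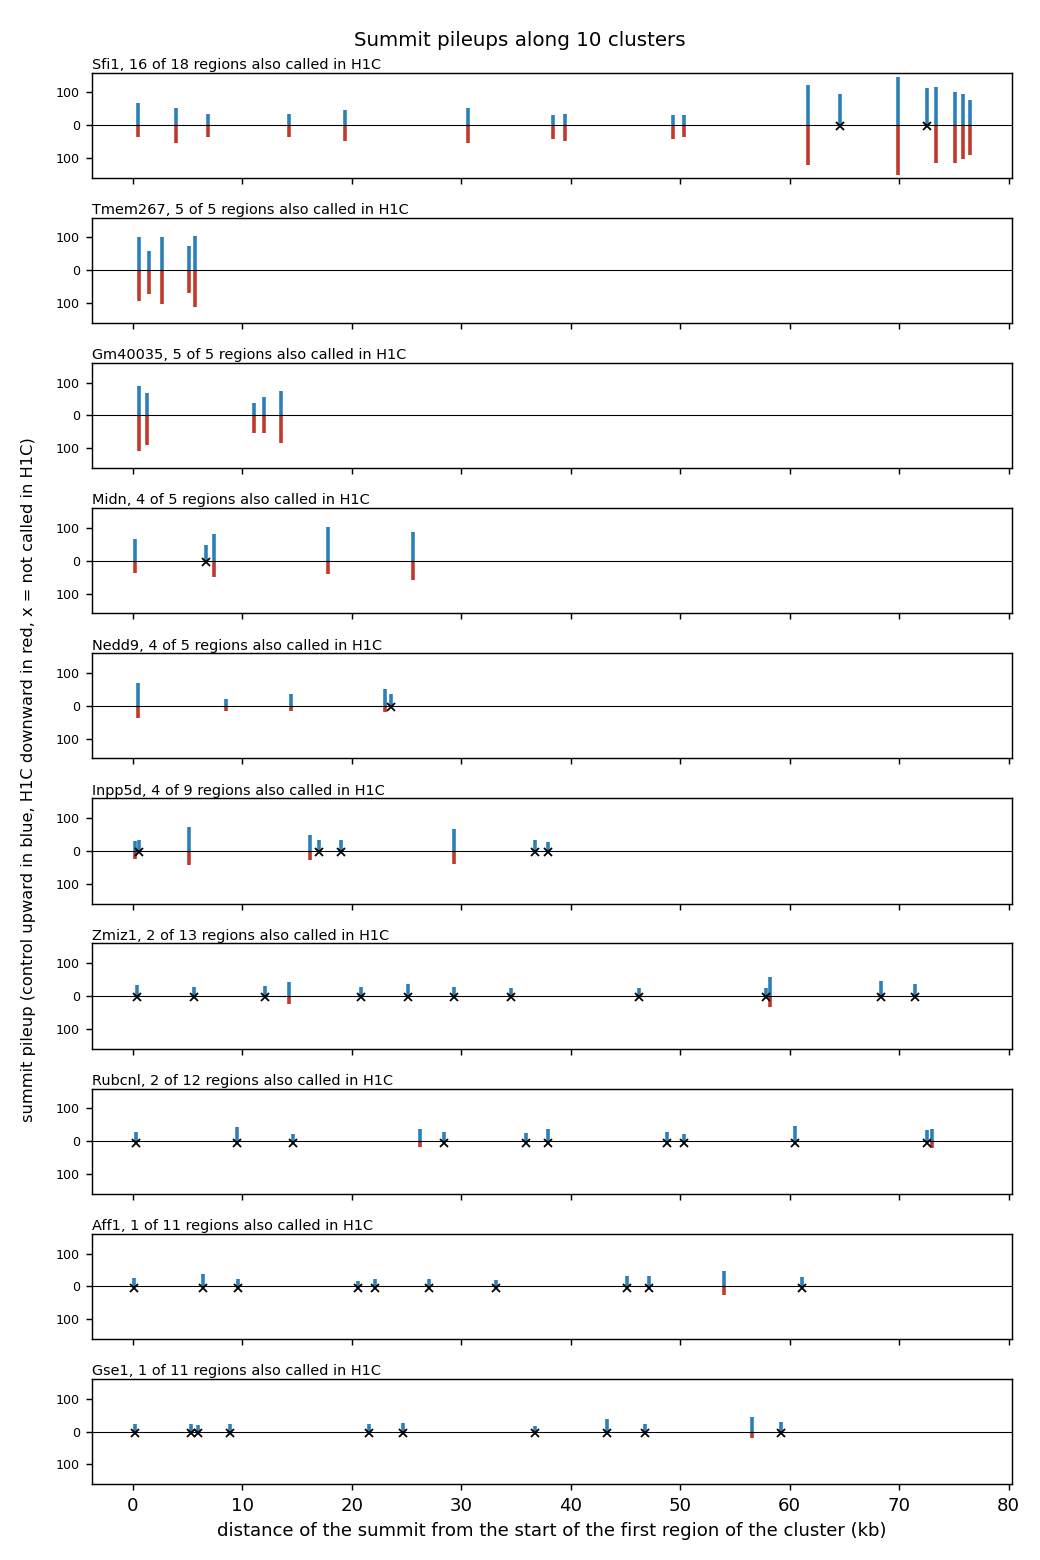
Summit pileups (vertical, control upward in blue, H1C downward in red) along 10 clusters by distance of the summit from the start of the first region (horizontal, kb); a cross marks a region not called in H1C. At Sfi1, Tmem267 and Gm40035 most bars are of about equal length in both libraries, while at Zmiz1, Rubcnl, Aff1 and Gse1 between 1 and 2 regions were called in H1C.

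Clusters without any H1C call made up 13 of the 56 with 6 regions, 2 of the 24 with 7 and 2 of the 12 with 8. Over all clusters the share was 27.7%. Those described next were picked for the lowest share called. Pstpip1, a cytoskeletal adaptor of blood cells, had 8 regions (chr9:56075261-56108501) with control pileups of 20 to 51. Snx9, which encodes an endocytosis protein, had 8 regions (chr17:5795932-5821291) of 15 to 47. Mgat4a, a glycosyltransferase gene, had 7 (chr1:37466586-37496271) of 20 to 36. Tnfaip8, a gene induced by TNF, had 7 (chr18:50014515-50053618) of 17 to 35, and Dipk1a had 6 (chr5:107922945-107961137) of 21 to 41. Apart from the region of 51 at Pstpip1, all of these had pileups of 47 or less. With high-copy regions left aside, the strongest control-only region of all clusters had a pileup of 79, near Adamtsl4 in the Mcl1 cluster. The next had 71 at Zc3h12a, an RNase gene that limits inflammation, and 70 near Actb. Their local backgrounds were 12.5, 15.5 and 17.1, against a median of 10.3 in clustered regions with pileups of 61 to 80. The part of the local background in the missing calls was not tested.

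Of the protein-coding genes, 629 (2.91%) were nearest to at least 1 clustered region. Genes of early response and survival were often among them, at 8 of 20. Transcription regulators of stem cells were at 4 of 30 and their surface and signalling receptors at 4 of 29. Markers of other cell types were at 1 of 20 for myeloid, 2 of 24 for lymphoid and 1 of 10 for endothelial and stromal cells. No gene was found among 16 erythroid and megakaryocyte, 10 mast cell and basophil or 12 non-hematopoietic markers. Housekeeping genes were at 2 of 25. These lists were written with earlier results of these data known and are small, so the counts are a description. Being nearest to a region does not show that the region acts on the gene.

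Of the regions nearest to stem cell regulators 3 of 21 were also called in H1C (14.3%, 95% interval 3.05 to 36.3), an interval that holds the 26.6% of all clustered regions. Their median control pileup was 25, against 31 in all clustered regions. Runx1, a founding factor of blood stem cells, had 5 regions outside the gene (chr16:92861689-92874378) with control pileups of 22, 45, 35, 22 and 37. H1C had 24 at the third and 23 at the fourth, and the strongest had no call. Ikzf1, which encodes Ikaros, a lymphoid and stem cell factor, had 8 regions in 2 clusters (chr11:11716057-11726497 and chr11:11751135-11789024), with pileups of 22 to 49. The region of 49 alone was called in H1C, with 31. Msi2 had 5 regions inside the gene (chr11:88599310-88632258) with pileups of 29, 15, 25, 25 and 18, and Gfi1, a repressor that keeps stem cells quiescent, had 3 regions of 15 to 21. None of these 8 was called in H1C.

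Among receptors and signalling genes, 4 of 13 regions were also called in H1C (30.8%, 95% interval 9.09 to 61.4), near the 26.6% of all clustered regions. Cxcr4, the receptor that holds stem cells in the marrow, had 5 regions (chr1:128601420-128620817) with control pileups of 26, 40, 51, 31 and 21. The 2 strongest were called in H1C, with 27 and 32. Jak2, the kinase of cytokine receptors, had 4 regions (chr19:29228123-29254103) with pileups of 25, 37, 24 and 55. The first 2 were called in H1C with 17 and 20, and the strongest was not. Ifnar1, a type I interferon receptor gene, had 2 regions of 44 and 45 in a cluster named by its neighbour Ifngr2, and neither was called in H1C. Cd27, a TNF receptor family gene, had 2 regions of 17 and 22, also without a call.

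Of the regions nearest to early response and survival genes 15 of 32 were also called in H1C (46.9%, 95% interval 29.1 to 65.3), beside 26.6% of all clustered regions. Their median control pileup was 42.5, and of all clustered regions at pileups of 41 to 50 the share was 45.2%. The housekeeping genes had a like share, 4 of 9 (44.4%, 13.7 to 78.8), at a median pileup of 69. Socs3, a feedback inhibitor of cytokine signalling, was nearest to 7 of the 9 regions of its cluster (chr11:117941477-117992107). The 7 had control pileups of 22, 39, 50, 32, 33, 70 and 39, and H1C had 26 at the second, 28 at the fifth, 31 at the sixth and 22 at the seventh. The strongest had a log2 ratio of -1.32 (95% interval -1.98 to -0.69). The region of 50 had no call although 3 weaker ones did.

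Mcl1, which blocks apoptosis and is needed by stem cells, had 5 regions (chr3:95645359-95674561) with control pileups of 42, 39, 73, 36 and 44. H1C had 21, 41 and 26 at the first, the third and the fourth. Nr4a1 had 4 regions (chr15:101240832-101266953) with control pileups of 77, 43, 29 and 40, and H1C had 42, 25 and 35 at all but the second. The third region at Mcl1 and the fourth at Nr4a1 covered the windows printed above, before annotated starts of these genes. The strongest region of each gene had about the same log2 ratio, -0.97 at Mcl1 (95% interval -1.56 to -0.40) and -1.02 at Nr4a1 (-1.59 to -0.46). Bcl2, another inhibitor of apoptosis, had 4 regions with pileups of 18 to 42, and Pim1, a survival kinase, had 3 of 41 to 47. None of these 7 was called in H1C.

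Of the remaining early genes, Fosb, a subunit of AP-1, had 2 of 4 regions called in H1C at control pileups of 33 to 60, and Btg2, an inhibitor of proliferation, had 1 of 3 at 48 to 56. Zfp36, which encodes an RNA-destabilising protein, had 2 of 2 at 84 and 87, in a cluster with high-copy regions.

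Few markers of other cell types had a cluster. Fcgr3, an Fc receptor of myeloid cells, had 4 regions of 22 to 37, with H1C pileups of 18 and 30 at 2 of them. Pax5, the B cell factor, had 4 regions inside the gene (chr4:44667433-44680541) with control pileups of 30, 34, 34 and 24 and H1C pileups of 24, 24 and 25 at the last 3. Ikzf3, a lymphoid factor, had 3 regions of 16 to 22 and Pecam1, an adhesion molecule of endothelium that stem cells and platelets also carry, had 6 of 22 to 58, all in control only. The median control pileup was 24 for the lymphoid regions and 28.5 for the myeloid and the endothelial ones, against 25 for the stem cell regulators. The part of other cells in the libraries was not tested. Among the housekeeping genes, Actb had 7 regions of 29 to 91 (chr5:142895134-142932606), and H1C had pileups of 48, 41 and 40 where control had 91, 69 and 74.

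Gene-end regions inside the spans of clusters had a lower share called in H1C than gene-end regions elsewhere. Inside the spans of 82 clusters lay 102 control gene-end regions, and 39 of them were called in H1C (38.2%, 95% interval 28.8 to 48.4), against 63.2% of 10040 elsewhere (62.2 to 64.1). Their median pileup was 39.5 against 44, their local background 8.93 against 6.14 and their width 325.5 against 498.5 bp. Of the 629 genes nearest to a clustered region, 410 (65.2%) had a gene-end region in control, and 274 of these (66.8%, 62.0 to 71.4) also had one in H1C. Of the other protein-coding genes 46.9% had one in control, and 71.2% of these (70.3 to 72.1) also in H1C. The intervals of these last shares overlap.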

How the data were processed

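Accessibility was measured by ATAC-seq in 1 control and 1 H1C library, each with its own list of regions called per sample. The submitters' processing notes name build mm10 and, in no order, MACS2, featureCounts, Picard, Bowtie2 2.2.9 and Trim Galore 0.4.4. Settings, the handling of duplicates and any shift to the cut site are not stated there, and both steps can move a summit or its pileup. Read totals are not part of the lists.

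The fold deposited by the authors is a ratio of summit pileup to local background. The −log10 p and −log10 q deposited by the authors come from their peak caller, with a minimum −log10 q of 1.31 (control) and 1.34 (H1C). The score the authors deposited was 10 times −log10 q without its decimals in 99.969% of control and 99.962% of H1C regions. These values were used only to describe, rank or filter regions.

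Pileup and local background were solved from each fold with its Poisson −log10 p. The pileup was whole, to a relative tolerance of 0.0001, for 32005 of 32005 control and 13156 of 13156 H1C regions. Genes came from a RefSeq table of GRCm38 (21627 protein-coding genes, ends without strand), and sequences from 32851 RefSeq windows of the same build. The planned motif search around distal summits needed a genome and was not run; the motifs were searched in the RefSeq windows instead.

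Shares have exact Clopper-Pearson intervals and pileup ratios exact conditional binomial ones. Amplified fragments are not independent molecules, so intervals cover counting error only. The solver, chaining and overlap were checked on simulated data. The clusters, the 10 gene lists and the comparisons were chosen with earlier results of these data known. Clusters were named by the nearest protein-coding gene of most regions. Named were the 10 with the most regions and the 10 with the highest summed fold. Among clusters of 5 or more regions, the 5 with the highest and the 5 with the lowest share called in H1C were named. The 3 with the most H1C regions, the listed genes and the 5 strongest regions were named too. Clusters called throughout, those with ratios near 0, the strongest control-only regions and the printed windows were chosen after their values were seen. A listed gene that the rule named is not reported here. Alternatives changed gaps, sizes, windows, thresholds, overlap rules and scales. The software was Python 3.11.15 with scipy 1.17.1, pandas 2.3.3, numpy 2.4.6 and, for plots, matplotlib 3.10.9.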

Additional observations from a re-analysis of the deposited data

How the results depend on the processing

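No paired analysis was possible because there was 1 library in each group. Of 56 alternatives for 6 results, 34 were counted as close to the value given, 20 as moved and 2 as reversed. Where a value moved or reversed, the cause was not tested. Counted as close were 397 clusters with a gene-end window of 2500 bp and 421 with summits within 25 kb of a gene, against 494. So was a median log2 pileup ratio of -0.57 with gaps up to 5 kb, against -0.78. The difference between clusters and other distal regions, 6.62 percentage points, was 3.86 with gaps up to 25 kb, 2.15 within 10 bins of −log10 p (added after seeing the data, as were the bins of fold and the run without the Sfi1 cluster), -3.89 within bins of pileup and -1.31 within bins of pileup and width. The number of clusters was 66 with gaps up to 5 kb, 1043 with gaps up to 25 kb, 1175 with 3 or more regions, 108 with 6 or more and 255 at a −log10 q of at least 5. The share of clustered regions called in H1C was 23.5% (25 kb), 24.6% (3 or more regions), 24.7% (gene-end window of 2500 bp), 24.1% (strict q), 20.95% (50% reciprocal overlap) and 50.3% with the control list cut to the length of the H1C list by −log10 p, where 930 regions were left in clusters. The share of clusters with no call was 33.3% (5 kb), 39.4% (3 or more regions), 15.7% (6 or more), 32.5% (strict q) and 38.1% (reciprocal overlap). With the local background of shared summits as the scale, a ratio of 0.869, the median log2 pileup ratio was -0.44. Stem cell regulators with a cluster numbered 10 at gaps up to 25 kb. Without replicates, library effects and H1C cannot be told apart, and a region missing from the H1C list may lie just under its threshold.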

Other observations

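The same rule applied to the H1C list gave 23 clusters with 114 of its 5295 distal regions near genes (2.15%), against 13.3% in control. Of the 23, 21 (91.3%) overlapped a control cluster, which is 4.25% of the control clusters, and 98 of the 114 regions (86.0%) overlapped a control region, near the 85.0% of all H1C regions. The Gm40035 cluster was among them, with 5 regions and a highest H1C pileup of 107, and so was Mcl1, with 4 regions and a highest pileup of 41. The H1C list held 13001 regions on these chromosomes and the control list 31831, and the part of list length in the number of clusters was not tested.

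By chromosome, the share of distal regions near genes that lay in clusters ran from 5.83% on chromosome X, with 3 clusters, to 18.0% on chromosome 11, with 51. The share of clustered regions called in H1C ran from 17.5% on chromosome 18 to 30.99% on chromosome 7 among the autosomes, and 8 of 13 were called on chromosome X, where 2 of the 3 clusters, those of Btbd35f29 and Mid1, had pileups about equal in both libraries.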
